A study of Mus musculus with 19 samples.

Results

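Bdh1, Oxct1, Acat1 and Slc16a1, the genes for taking up and oxidising ketone bodies, were examined in the heart of mice whose gut microbiome was normal or dysbiotic. They were chosen by name for their known roles, with earlier results of these data known. They make up 4 of 29726 genes in the deposited table. All 4 passed the filter on low values (at least 1 FPKM in at least 4 samples), as did 10866 genes in all. FPKM is the number of sequenced fragments scaled by transcript length and by the number of mapped fragments. RNA of the heart was sequenced from 19 formerly germ-free, wild-type C57BL/6NTac mice, 2 months old, each given a faecal transplant. The groups held 4 males and 5 females with a normal microbiome, and 5 males and 5 females with a dysbiotic one. By the series' own account the normal microbiome came from wild-type donors and the dysbiotic one from Il10-/- donors, which lack an anti-inflammatory cytokine. All recipients, controls included, had been raised germ-free, and each library was made from a piece of frozen heart. The labels call the cell type cardiocytes, but a piece of heart holds other cells too, so fewer cells of a type and less RNA per cell cannot be told apart. The summed level of 8 cardiomyocyte markers was 14143 to 18708 FPKM, against 0.0805 to 2.53 FPKM for 6 markers of T and B cells.

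The heart takes ketone bodies from the blood and burns them in its mitochondria. Slc16a1 encodes MCT1, a plasma membrane carrier that moves ketone bodies, lactate and pyruvate together with a proton. Inside the mitochondrion, BDH1 oxidises 3-hydroxybutyrate to acetoacetate, and OXCT1 (also called SCOT) passes coenzyme A from succinyl-CoA to acetoacetate. ACAT1, a thiolase that also serves isoleucine breakdown, then splits acetoacetyl-CoA into acetyl-CoA for the citrate cycle. Liver makes ketone bodies but lacks OXCT1, so it cannot use them.

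On GRCm38, Slc16a1 (ENSMUSG00000032902) lies on chromosome 3 from 104638668 to 104658462, forward strand. Bdh1 (ENSMUSG00000046598) lies on chromosome 16 from 31422280 to 31458901, and Oxct1 (ENSMUSG00000022186) on chromosome 15 from 4026383 to 4155344, both forward. Acat1 (ENSMUSG00000032047) lies on chromosome 9 from 53580522 to 53610382, reverse strand. RefSeq promoter windows on GRCm38.p6, the 250 bases before a start site, were matched for 3 of the 4 genes (4 windows, with 2 for Bdh1). The windows below belong to the carrier, which came nearest to a call between the microbiomes, to the most abundant enzyme, and to the enzyme that differed between the sexes. Capitals mark matches, on either strand, to AAGGTCA (the extended half-site of ERR receptors), GCGCATGC (NRF1) and CACGTG (the E-box), which do not overlap here.
Slc16a1, chr3:104638414-104638663, forward: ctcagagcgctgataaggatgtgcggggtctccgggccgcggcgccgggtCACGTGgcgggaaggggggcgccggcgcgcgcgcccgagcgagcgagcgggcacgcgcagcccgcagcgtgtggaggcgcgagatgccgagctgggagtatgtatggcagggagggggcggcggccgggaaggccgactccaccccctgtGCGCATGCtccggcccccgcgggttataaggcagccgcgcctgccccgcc
Oxct1, chr15:4026178-4026427, forward: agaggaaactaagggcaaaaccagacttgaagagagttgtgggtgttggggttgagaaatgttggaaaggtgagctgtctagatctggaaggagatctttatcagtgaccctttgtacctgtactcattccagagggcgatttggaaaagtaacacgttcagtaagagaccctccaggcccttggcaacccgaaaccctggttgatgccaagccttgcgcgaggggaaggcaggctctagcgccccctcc
Bdh1, chr16:31422047-31422296, forward: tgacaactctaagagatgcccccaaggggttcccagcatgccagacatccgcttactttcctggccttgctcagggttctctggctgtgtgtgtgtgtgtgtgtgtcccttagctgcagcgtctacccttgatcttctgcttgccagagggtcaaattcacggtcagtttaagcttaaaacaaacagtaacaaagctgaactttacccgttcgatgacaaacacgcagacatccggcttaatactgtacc
The Slc16a1 window was 76.4% GC with 37 CpG. Of all 32851 windows, 98.1% had 37 CpG or fewer, and the median was 6. The Oxct1 window had 6 CpG, and the Bdh1 windows had 7 and 9. The Slc16a1 window held GCGCATGC, starting at base -50 from the start site, and CACGTG, starting at base -200. These letters occurred in 2.26% and 6.02% of all windows. None of the 3 motifs was found in the Oxct1 window or in either Bdh1 window, and AAGGTCA, found in 4.08% of all windows, was in none of the 4. These matches are letters in a window, and binding was not measured.

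Oxct1 was the most abundant of the 4 transcripts and Acat1 the second in 19 of 19 hearts. Mean FPKM over the 19 hearts was 204.5 for Oxct1, 112.9 for Acat1, 37.5 for Slc16a1 and 29.4 for Bdh1. By level they ranked 147, 241, 682 and 838 among the 10866 genes. FPKM is scaled per length, so levels of different genes can be set side by side. The enzyme that commits acetoacetate to oxidation stood at 1.84 times the FPKM of the thiolase and 6.75 times that of BDH1 (median of the within-heart ratios). Slc16a1 stood above Bdh1 in 18 of 19 hearts, and the exception was normal female 3, with 33.3 FPKM of Slc16a1 against 33.4 of Bdh1. The order of these neighbours did not differ beyond their spread in females with the normal microbiome, where the ratio of Slc16a1 to Bdh1 ran from 0.995 to 1.17.

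The genes also differed in how steady they were. The SD of log2(FPKM + 1) within groups was 0.0625 for Oxct1 and 0.0611 for Acat1, with 6.59% and 4.38% of genes of like level (within 0.5 log2) having a smaller one. For Slc16a1 it was 0.11, and 53.1% of like genes were steadier. For Bdh1 it was 0.15, and 82.2% were steadier. So the most abundant pair varied least between hearts, and the gene for the dehydrogenase varied most.

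**Figure D1:**
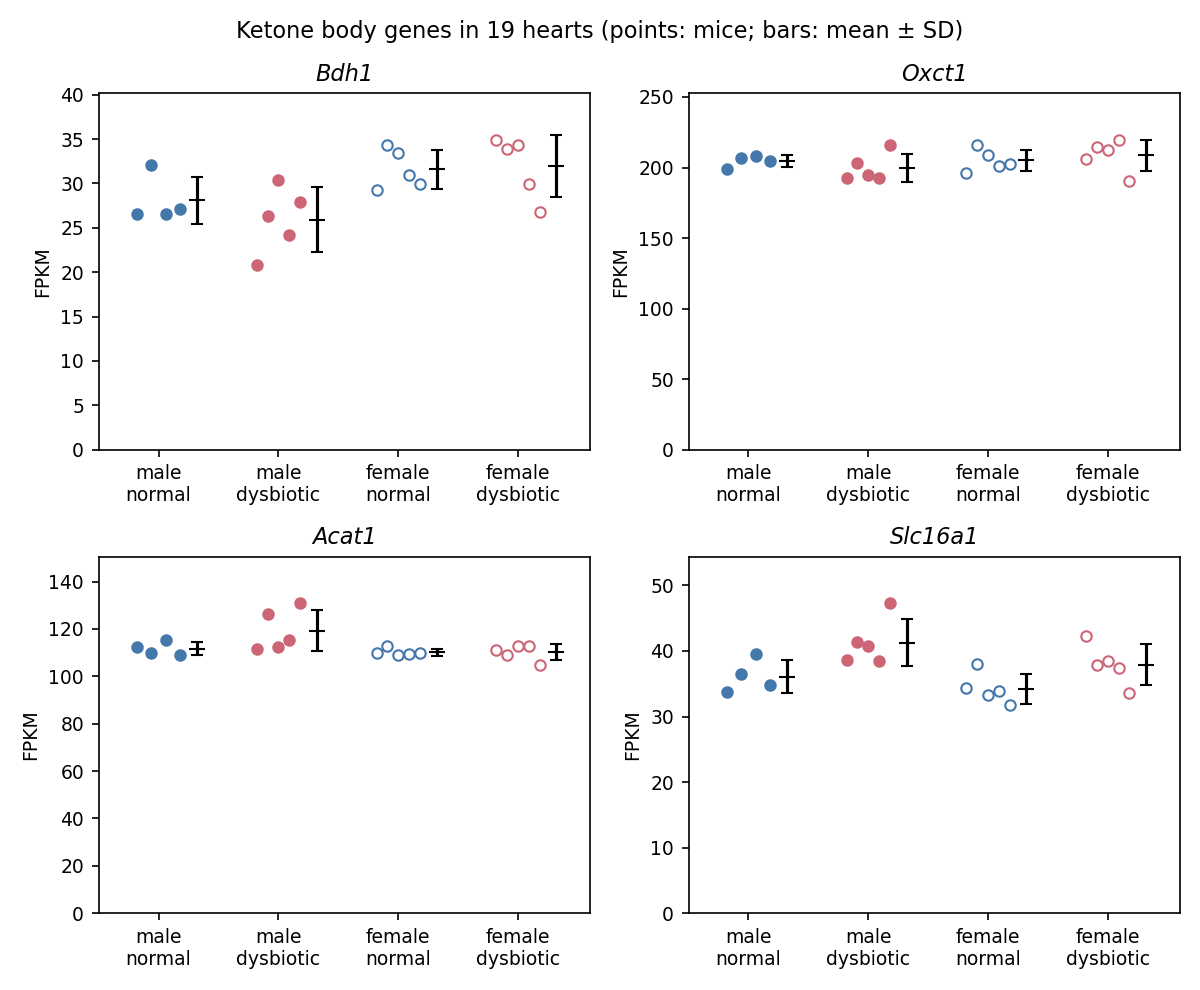
FPKM of Bdh1, Oxct1, Acat1 and Slc16a1 (vertical axes, each from 0) in each heart, by sex and microbiome; filled points are males, open points females, and bars give the mean ± SD of 4 or 5 mice. Slc16a1 points sit higher with the dysbiotic microbiome in each sex, with overlap, and Bdh1 points sit higher in females than in males.

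Slc16a1, the carrier, had a higher mean in dysbiotic than in normal hearts of each sex. The difference over both sexes just missed the threshold, and that within each sex did not come near it. In males it measured 33.7, 36.4, 39.5 and 34.8 FPKM in the 4 normal hearts. In the 5 dysbiotic male hearts it measured 38.6, 41.3, 40.7, 38.5 and 47.3 FPKM. All 5 dysbiotic males stood above the normal median, and 3 of them above the highest normal male. In females it measured 34.3, 38.0, 33.3, 33.9 and 31.7 FPKM with the normal microbiome, and 42.3, 37.9, 38.4, 37.4 and 33.6 FPKM with the dysbiotic one. Of the 5 dysbiotic females, 4 stood above the normal median and 2 above the highest normal female, so the groups overlapped in each sex. Over both sexes the mean ± SD was 35.1 ± 2.46 FPKM in 9 normal and 39.6 ± 3.6 FPKM in 10 dysbiotic hearts. The log2 difference of FPKM + 1 was 0.17 (SE 0.048, 95% interval 0.064 to 0.27), which is 12.1% (4.52% to 20.3%). The adjusted p was 0.0510 (limma, Benjamini-Hochberg over 10866 genes, two-sided, threshold 0.05). In males the difference was 0.19 (SE 0.071, adjusted p = 0.213) and in females 0.14 (SE 0.067, adjusted p = 0.340). Its difference between the sexes was -0.045 (SE 0.097, adjusted p = 0.947, limma), females minus males, with an interval of -0.25 to 0.16 that holds responses of either order.

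As a single gene, with no adjustment over the genes, the exact two-sided permutation test within sex gave p = 0.00368 for Slc16a1 over both sexes (31752 arrangements). The same exact test gave p = 0.0476 in males (126 arrangements) and 0.0952 in females (252), where the smallest p it can give is 0.00794. The call over both sexes turned on the setting. Adjusted p was 0.0292 after median-ratio scaling of the libraries, 0.0237 after upper-quartile scaling and 0.0264 after a correction for GC content that was chosen after seeing the data. It was 0.116 with no filter on low values. It fell below the threshold without normal male 3 (0.0381), dysbiotic male 1 (0.0449), dysbiotic male 4 (0.0423), normal female 2 (0.0273) or dysbiotic female 5 (0.0249), and stayed above it without each of the other 14, up to 0.103. In the authors' deposited table, Slc16a1 had a fold of 1.13 (dysbiotic over normal, sexes pooled) with a p of 0.00951 and a q of 0.246.

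**Figure D2:**
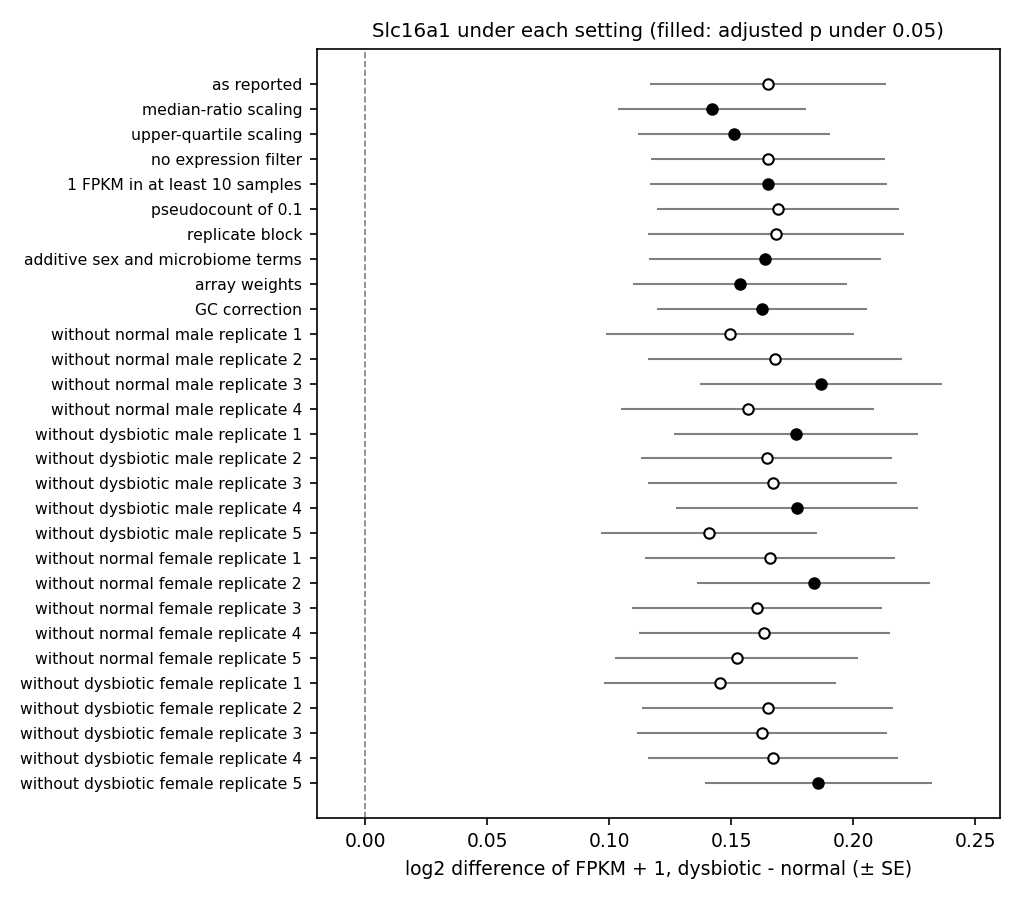
Log2 difference of Slc16a1 between microbiomes over both sexes (horizontal axis, ± SE) as reported, under 9 other settings and with each of the 19 libraries left out; filled points passed an adjusted p of 0.05. The difference lies between 0.14 and 0.19 throughout, and the call changes with the setting.

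The 3 enzymes gave no call between the microbiomes. Oxct1 measured 198.8, 206.9, 208.5 and 204.8 FPKM in normal males and 192.7, 203.3, 194.4, 192.7 and 215.7 FPKM in dysbiotic males. In females it measured 196.4, 216.2, 209.1, 201.3 and 202.3 FPKM with the normal and 206.1, 214.7, 212.3, 219.5 and 190.6 FPKM with the dysbiotic microbiome. Of the 5 dysbiotic males, 3 stood below the lowest normal male and 1 above the highest. Of the 5 dysbiotic females, 4 stood above the normal median, 1 above the highest normal female and 1 below the lowest. The log2 difference of Oxct1 over both sexes was -0.0063 (SE 0.034, adjusted p = 0.953, limma), with an interval of -5.17% to 4.54%.

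Acat1 measured 112.6, 109.7, 115.3 and 109.1 FPKM in normal males and 111.4, 126.4, 112.3, 115.6 and 130.8 FPKM in dysbiotic males. All 5 dysbiotic males stood above the normal male median and 3 of them above the highest normal male, as for Slc16a1. Dysbiotic males 2 and 5 stood well apart from the others. In females it measured 109.8, 112.7, 109.2, 109.3 and 109.9 FPKM with the normal and 111.2, 109.1, 112.6, 113.0 and 105.0 FPKM with the dysbiotic microbiome. Of the 5 dysbiotic females, 1 stood above the highest normal female and 2 below the lowest. The log2 difference of Acat1 was 0.092 in males (SE 0.048, adjusted p = 0.418, limma) and 0.046 over both sexes (SE 0.033, adjusted p = 0.532), with an interval of -1.60% to 8.28% for the latter. Without dysbiotic male 5 these were 0.058 and 0.029.

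Bdh1 measured 26.5, 32.1, 26.6 and 27.1 FPKM in normal males and 20.9, 26.3, 30.4, 24.1 and 27.9 FPKM in dysbiotic males. In females it measured 29.2, 34.3, 33.4, 30.9 and 30.0 FPKM with the normal and 34.9, 33.9, 34.4, 29.9 and 26.7 FPKM with the dysbiotic microbiome. The dysbiotic hearts reached both lower and higher than the normal ones when the sexes were pooled, with 3 of 10 below the lowest and 2 above the highest. The log2 difference of Bdh1 over both sexes was -0.052 (SE 0.066, adjusted p = 0.764, limma), with an interval of -12.3% to 6.06%. It was -0.016 without dysbiotic male 1, -0.020 without normal male 2, -0.022 without dysbiotic female 5 and -0.081 without dysbiotic male 3.

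Counted over the genes, 0 of the 4 passed over both sexes, where 5.67% of all genes tested did (363 rose and 253 fell). In males 0 of 4 passed against a background of 1.91%, and in females 0 of 4 against 2.84%. For the difference between the sexes in the response, 0 of 4 passed against 0.396%. At an unadjusted limma p under 0.05, 1 of the 4 (Slc16a1) fell in each of the first 3 comparisons and 0 in the last. Over all genes that cutoff took 17.4%, 13.6%, 13.9% and 7.41%. Of the 4, 0 had a q under 0.05 in the authors' deposited table. The split of rises and falls over all genes moved with scaling, with 365 up and 394 down under the median-ratio and 400 up and 347 down under the upper-quartile method.

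**Figure D3:**
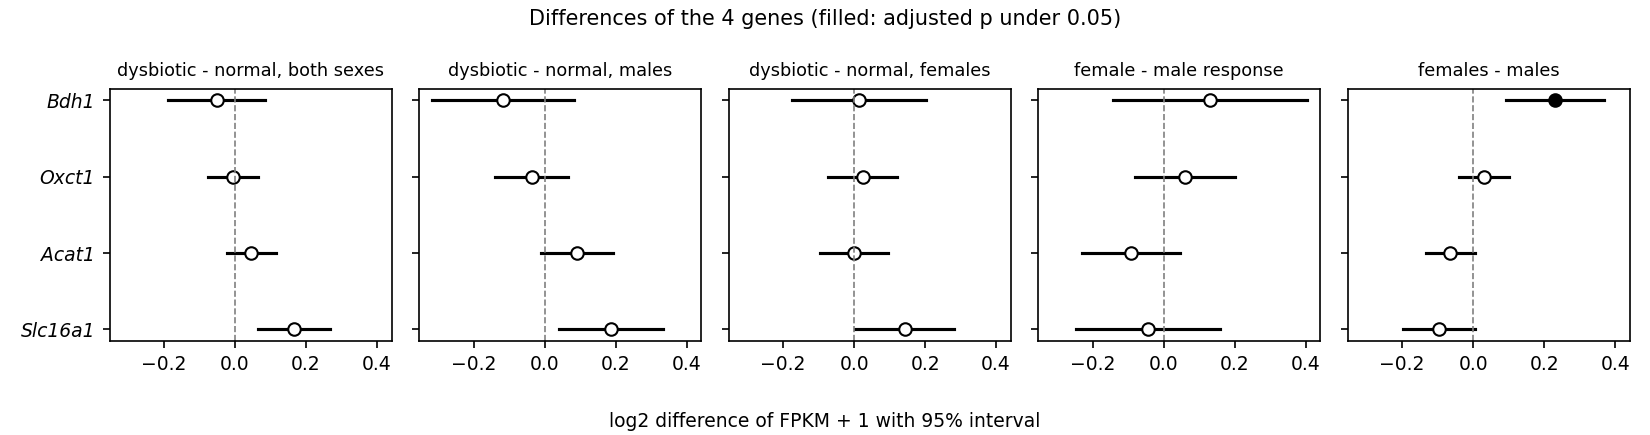
Log2 differences of FPKM + 1 (horizontal axes) of the 4 genes with 95% intervals from limma, in the 5 comparisons; filled points passed an adjusted p of 0.05. Bdh1 between the sexes passed (0.23), and the interval of Slc16a1 between microbiomes over both sexes lies above 0 (0.064 to 0.27) with a p above the threshold.

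Set against the 3 enzymes of the same heart, Slc16a1 separated the microbiomes without overlap in either sex. This ratio, of Slc16a1 FPKM to the geometric mean FPKM of Bdh1, Oxct1 and Acat1, was chosen after the values were seen and is given with no test. It is free of any factor that scales a whole library. It was 0.401, 0.405, 0.458 and 0.411 in normal males and 0.504, 0.471, 0.467, 0.473 and 0.512 in dysbiotic males. In females it was 0.400, 0.404, 0.364, 0.385 and 0.363 with the normal and 0.456, 0.409, 0.410, 0.413 and 0.415 with the dysbiotic microbiome. The mean ± SD went from 0.419 ± 0.027 to 0.485 ± 0.021 in males and from 0.383 ± 0.019 to 0.421 ± 0.020 in females. The lowest dysbiotic value exceeded the highest normal one within each sex, while dysbiotic females overlapped normal males. Of 10863 genes set against the same 3 enzymes, 0.368% (40 genes) stood higher in the dysbiotic hearts of both sexes with no overlap. Against Oxct1 alone the male groups did not overlap and the female groups did. The ratio of Oxct1 to Slc16a1 was 5.28 to 5.90 in normal and 4.56 to 5.01 in dysbiotic males. In females it was 5.69 to 6.37 and 4.87 to 5.87, where the ranges met between 5.69 and 5.87. Against each of the other enzymes alone the groups overlapped in both sexes. The ratio of Acat1 to Slc16a1 was 2.92 to 3.34 in normal and 2.76 to 3.06 in dysbiotic males, and 2.97 to 3.46 and 2.63 to 3.12 in females. The ratio of Slc16a1 to Bdh1 was 1.14 to 1.48 and 1.34 to 1.85 in males, and 0.995 to 1.17 and 1.12 to 1.26 in females. The ratio of Oxct1 to Acat1, the consecutive enzymes, also lay apart in males, at 1.77 to 1.89 with the normal and 1.61 to 1.73 with the dysbiotic microbiome. In females it overlapped, at 1.79 to 1.92 and 1.82 to 1.97. For the ratios to Oxct1 alone and to Acat1 alone, the share of all genes lying apart in males was not counted. The 0.368% above is for both sexes and does not apply to them.

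**Figure D4:**
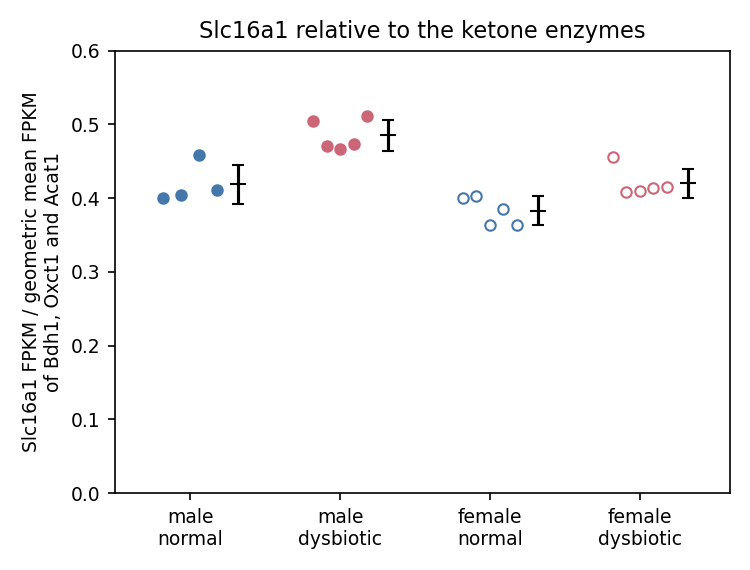
Slc16a1 FPKM divided by the geometric mean FPKM of Bdh1, Oxct1 and Acat1 in the same heart (vertical axis, from 0), by sex and microbiome; points are mice and bars the mean ± SD. The dysbiotic points (0.467 to 0.512 in males, 0.409 to 0.456 in females) lie above the normal points of the same sex (0.401 to 0.458, and 0.363 to 0.404).

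Markers of other cell types were read beside Slc16a1. Of 6 endothelial markers, 1 passed over both sexes, Tek (0.17, SE 0.048, adjusted p = 0.0495, limma). The other 5 did not pass and differed in sign, from -0.11 (SE 0.078) for Vwf and -0.099 (SE 0.042) for Pecam1 to 0.18 (SE 0.10) for Cldn5. The summed endothelial level was 74.6 to 83.3 FPKM in normal and 80.9 to 90.0 FPKM in dysbiotic males. In females that sum was 82.8 to 98.2 FPKM with the normal and 79.4 to 93.3 FPKM with the dysbiotic microbiome. The sum of 4 Schwann cell and neuron markers, all below the filter, was 0.975 to 1.33 FPKM in normal and 1.47 to 1.83 FPKM in dysbiotic males, and 0.884 to 1.46 and 1.23 to 1.75 FPKM in females. In females the mean of Th went the other way, from 0.090 FPKM with the normal to 0.052 FPKM with the dysbiotic microbiome, while the other means lay higher. How often genes or sums of like level lie apart in males was not counted. Of 5 fat cell markers tested 0 passed (limma), but all 5 lay higher with the dysbiotic microbiome (0.14 to 0.55, median 0.39). The sum of the 6 listed had a median of 93.2 FPKM in normal and 120.4 in dysbiotic males, and 118.4 and 133.8 FPKM in females. Of 8 cardiomyocyte markers 0 passed over both sexes, and of 6 fibroblast markers 1 fell, Col1a1. The other fibroblast markers did not pass and differed in sign, from -0.19 (SE 0.082) for Postn to 0.13 (SE 0.062) for Tcf21. Over all genes tested, 5.67% passed in this comparison, which stands beside each of these marker counts. The part of these cells in the result was not tested. The cage, the day of collection and the library batch of each mouse are not given in the sources used here, and where they follow the microbiome they cannot be told apart from it.

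Between the sexes, Bdh1 was the gene of the 4 that passed. It stood at 31.8 ± 2.78 FPKM in 10 females against 26.9 ± 3.25 FPKM in 9 males. All 10 females were above the male median, and 5 were above the highest male. The log2 difference, females minus males, was 0.23 (SE 0.066, 95% interval 0.093 to 0.37), or 17.3% higher in females (adjusted p = 0.0118, limma). It passed when each library was left out in turn (0.19 to 0.26). The background for this comparison was high, with 31.4% of all genes called (2548 higher in females and 863 lower), so 1 of 4 is near the background. That split depended on scaling, and was 1769 against 1758 after median-ratio scaling and 1622 against 1387 after the GC correction. The libraries of the sexes differed in their trend with GC content. The slope of log2 deviation per unit of GC had a median of -0.51 in males (-0.84 to 0.37) and 0.45 in females (-0.21 to 0.62). The longest Bdh1 transcript was 52.1% GC, against a median of 50.1% for the genes tested, and the difference of Bdh1 after GC correction was 0.18 (adjusted p = 0.0287, limma). Markers of fat cells also differed between the sexes: Cfd and Cidec, 2 of 5 tested, were higher in females, and the summed level of the 6 listed was 87.5 to 142.6 FPKM in males and 97.9 to 175.1 FPKM in females. Fabp4, the largest part of that sum, differed by 0.00018 (SE 0.065) between the sexes, and Cfd by 1.94 (SE 0.33). The part of fat cells in the difference of Bdh1 was not tested.

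Acat1 and Slc16a1 lay lower in females without passing as deposited. The log2 difference of Acat1 was -0.065 (SE 0.033, adjusted p = 0.141) and that of Slc16a1 -0.096 (SE 0.048, adjusted p = 0.138, limma). Both passed after median-ratio scaling, at -0.12 (adjusted p = 0.00109) and -0.15 (adjusted p = 0.00525). Oxct1 differed by 0.032 (SE 0.034, adjusted p = 0.498), with an interval of -2.64% to 7.33%, and its sign turned under the same scaling. The sign of the Bdh1 difference, higher in females, held under each scaling tried.

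Within groups, most pairs of the genes of ketone use were correlated from heart to heart on the deposited scale, but no pair passed after median-ratio scaling. As deposited, deviations of log2(FPKM + 1) from group means correlated for 5 of 6 pairs over the 19 hearts (permutation test, 100000 resamples, adjusted over the 6 pairs). The share of all gene pairs, or of pairs of like level, that pass this test was not counted. The 5 of 6 is therefore not shown to be particular to the genes of ketone use. Oxct1 and Acat1, the consecutive steps, gave r = 0.73 (rho 0.64, adjusted permutation p = 0.00198, and 0.0120 for rho), and r = 0.58 without the 2 hearts farthest from the median of Oxct1. Oxct1 and Slc16a1 gave r = 0.70 (rho 0.59, adjusted permutation p = 0.00207 and 0.0144), and 0.48 without 2 such hearts. Acat1 and Slc16a1 gave r = 0.68 (rho 0.62, adjusted permutation p = 0.00266 and 0.0120), and 0.61 without 2. Bdh1 had a lower r, of 0.58 to Slc16a1 (rho 0.63, adjusted permutation p = 0.0127 and 0.0120) and 0.54 to Oxct1 (rho 0.55, adjusted permutation p = 0.020 and 0.0196). By rho, Bdh1 and Slc16a1 (0.63) stood among the pairs named before (0.59 to 0.64). Without the 2 hearts farthest in Bdh1 its r values were 0.64 and 0.66, above the 0.48 to 0.61 of those pairs. The order of the pairs thus turned on the measure. Bdh1 and Acat1 gave r = 0.31 (rho 0.21, adjusted permutation p = 0.194 and 0.384), and 0.39 without 2. After median-ratio scaling 0 of the 6 pairs passed, with r from -0.18 for Bdh1 and Acat1 to 0.56 for Oxct1 and Acat1, so the relation rests in part on how the libraries are scaled. The scaling factors ran from 0.932 to 1.04 in males and from 0.971 to 1.06 in females.

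The genes most like each of them in deviations from group means over the 19 hearts were looked up among the 10866. Oxct1 and Acat1 shared their nearest gene, Atp5a1, which encodes the alpha subunit of mitochondrial ATP synthase, at r = 0.87 and 0.92. After median-ratio scaling these were 0.76 and 0.82. For Oxct1 the next were Fastkd1 (0.86) and Adprh (0.86), and for Acat1 Pank4 (0.91) and Me3, a mitochondrial malic enzyme (0.91). For Bdh1 they were Ehbp1l1 (0.88), Ppp2ca, a catalytic subunit of protein phosphatase 2A (0.88), and Wfs1, a protein of the endoplasmic reticulum (0.87). For Slc16a1 they were Ptbp3, an RNA-binding splicing regulator (0.88), Iws1 (0.88) and Cacybp (0.86). After median-ratio scaling Fastkd1 stood at 0.51, Adprh at 0.48, Pank4 at 0.67 and Me3 at 0.78, and the genes nearest to Bdh1 and Slc16a1 stood at 0.77 to 0.86. These are the highest of many values from hearts that share library scale and depth, and are given as descriptions. No gene was among the 3 nearest of both Bdh1 and another of the 4.

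Relatives of the 4 genes were mostly far lower in the heart. Of 17 listed monocarboxylate carriers and their partners, 15 were in the table and 4 passed the filter; Slc5a8 and Slc5a12 were not analysed here. Slc16a3 (MCT4) lay at 0.280 to 0.554 FPKM and Slc16a7 (MCT2) at 0.372 to 0.83 FPKM, both under the filter, as were Slc16a8 (MCT3) and the less studied Slc16a4, Slc16a5, Slc16a9, Slc16a11, Slc16a12, Slc16a13 and Slc16a14, which reached at most 1.19 FPKM. Slc16a6, whose relative in zebrafish liver exports 3-hydroxybutyrate, lay at 1.01 to 1.60 FPKM, against 31.7 to 47.3 FPKM for Slc16a1. Bsg, basigin, the partner that carries MCT1 to the membrane, lay at 362.6 to 500.0 FPKM, while Emb, embigin, another such partner, lay at 0.191 to 0.421 FPKM. Between the microbiomes 0 of the 4 carriers and partners tested passed (limma), and 1 had an unadjusted p under 0.05. That was Slc16a10, a carrier of aromatic amino acids (0.17, SE 0.050, adjusted p = 0.0615), which did pass after the GC correction. Between the sexes, where 31.4% of all genes were called, Bsg was higher in females by 0.25 (SE 0.045, adjusted p = 0.000418, limma). Slc16a1 had the opposite sign and did not pass as deposited (-0.096, SE 0.048, adjusted p = 0.138, limma).

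Of 12 other genes of ketone and acetate metabolism, 10 were in the table and 7 passed the filter; Oxct2a and Oxct2b were not analysed here. Between the microbiomes 0 of the 7 passed, and 0 had an unadjusted p under 0.05 (limma). The summed level of 7 hepatocyte markers varied from 18.7 to 783.6 FPKM between hearts, and 0 of the 7 passed between the microbiomes. The cytosolic thiolase Acat2 lay at 1.11 to 2.70 FPKM, and its mouse relative Acat3 at 0.0779 to 1.59 FPKM. Bdh2 lay at 0.0782 to 0.271 FPKM. Between the sexes Acss1, the mitochondrial acetyl-CoA synthetase, was higher in females by 0.23 (SE 0.041, adjusted p = 0.000305), and Hmgcs1, the cytosolic synthase of sterol production, was lower by 0.23 (SE 0.055, adjusted p = 0.00406). Among 4 receptors for ketone bodies, lactate and short fatty acids, Hcar1, Hcar2 and Ffar2 reached at most 0.438, 0.387 and 0.0924 FPKM, and Ffar3 was not analysed here.

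The citrate cycle, which ketone oxidation feeds, and the thiolases and branched-chain amino acid breakdown showed no call between the microbiomes. Of 18 citrate cycle genes 0 passed (limma), with 0 at an unadjusted p under 0.05 and a median log2 difference of 0.026, against 0.017 over all genes. Of 24 genes of thiolases and branched-chain amino acid breakdown 0 passed, with 1 at an unadjusted p under 0.05 and a median of 0.027. Between the sexes Sucla2, a subunit of the ligase that turns succinyl-CoA into succinate, was lower in females by 0.13 (SE 0.034, adjusted p = 0.00614), and so was Dld, by 0.13 (SE 0.036, adjusted p = 0.0124), making 0 higher and 2 lower of 18, against the 31.4% of all genes called between the sexes. Of the 24, 6 were higher in females and 0 lower, a share below that background, among them Bckdhb (0.21, SE 0.041) and Bcat2 (0.19, SE 0.047). This count became 3 higher and 3 lower after median-ratio scaling, with Bckdhb, Bcat2 and Auh passing in both.

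Of 14 genes of lactate and pyruvate handling, 1 rose and 2 fell over both sexes, where 5.67% of all genes passed. The other 11 did not pass (adjusted p 0.317 to 0.996, limma), and the median log2 difference of the 14 was 0.018 against 0.017 over all genes. Pdk4, the kinase that shuts pyruvate dehydrogenase and is known to rise in fasting, fell by 0.44 on the log2 scale (SE 0.11, adjusted p = 0.0192, limma). Its mean was 382.8 FPKM in normal and 289.8 in dysbiotic males, and 425.5 and 311.7 in females. Pdp1, a phosphatase that opens the same complex, rose by 0.29 (SE 0.053, adjusted p = 0.00230), and Pdp2, another such phosphatase, fell by 0.22 (SE 0.053, adjusted p = 0.0173). These 3 passed under each scaling and when each library was left out in turn, and Pdk4 did not pass with no filter on low values. Ldhb, the lactate dehydrogenase subunit of heart, differed by 0.030 (SE 0.049, adjusted p = 0.828). Between the sexes 5 of the 14 were higher in females and 0 lower, near the background of 31.4%, and this became 3 higher and 4 lower after median-ratio scaling; Pcx, pyruvate carboxylase, was higher by 0.47 (SE 0.063, adjusted p = 2.11e-05) and passed in both.

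Of 22 regulators and fasting-responsive genes, 20 passed the filter, and 1 rose and 3 fell over both sexes, beside a background of 5.67%. Ppargc1a, the coactivator PGC-1α, which in skeletal muscle of mice is known to raise Oxct1 and Bdh1, fell by 1.06 (SE 0.13, adjusted p = 0.000127, limma), with mean FPKM of 25.4 in normal and 11.4 in dysbiotic males, and 24.9 and 11.1 in the females. Foxo3 fell by 0.33 (SE 0.066, adjusted p = 0.00440), and Esrrg, an estrogen-related receptor, by 0.17 (SE 0.047, adjusted p = 0.0332). Esrrb rose by 0.16 (SE 0.045, adjusted p = 0.0407). Acot1, a thioesterase of fatty acyl-CoA, rose in females by 0.51 (SE 0.13, adjusted p = 0.0470) and did not pass over both sexes (0.24, adjusted p = 0.191). Ppargc1a and Foxo3 passed when each library was left out in turn, Esrrg in 9 and Esrrb in 6 of the 19. In the same hearts the mean of Oxct1 was 204.8 FPKM in normal and 199.8 in dysbiotic males, and 205.1 and 208.6 FPKM in the females. The mean of Bdh1 was 28.1 FPKM in normal and 25.9 in dysbiotic males (log2 difference -0.12, SE 0.095, adjusted p = 0.633, limma; -0.045 without dysbiotic male 1 and -0.054 without normal male 2), and in females the difference was 0.013 (SE 0.090). Ppara, the fatty acid receptor that controls fasting genes, differed by -0.23 (SE 0.087, adjusted p = 0.146), and was lower in females than in males by 0.46 (SE 0.087, adjusted p = 0.000602). Of these 20 genes, females had 6 at a higher and 1 at a lower level, near the 31.4% of all genes called. The lists were drawn up with earlier results of these data known, Ppargc1a among them.

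**Figure D5:**
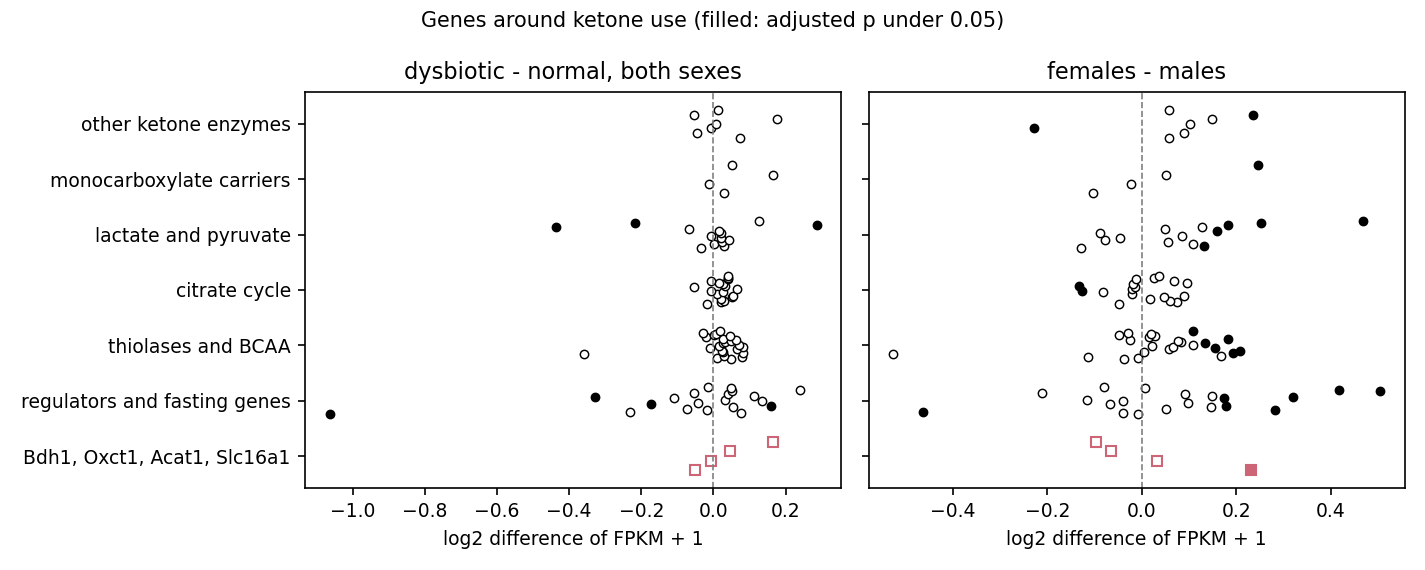
Log2 differences of FPKM + 1 (horizontal axes) for the tested genes of 6 related lists (circles) and for Bdh1, Oxct1, Acat1 and Slc16a1 (squares), between microbiomes over both sexes (left) and between sexes (right); filled symbols passed an adjusted p of 0.05 (limma), and vertical spread has no meaning. At left the calls lie among pyruvate and regulator genes, with Ppargc1a at -1.06.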

How the data were processed

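Heart RNA from 19 mice was enriched on oligo(dT) beads and sequenced, and groups were taken from the sample labels. The submitters' processing notes list HISAT2 2.0.4, StringTie 1.3.4d, cutadapt 1.9 and DESeq2 as the authors' tools, and hg38, a human build. The gene IDs are of mouse, and 99.7% were found in GENCODE M21, so its GRCm38 coordinates are printed and the mouse build is not given in the sources used here. The deposited table holds FPKM for 29726 genes, per the file headers. It also holds the authors' fold (a ratio, equal within 0.1% to that of group mean FPKM, sexes pooled), its log2, and the authors' p-value and q-value. Depth, estimated from the steps between low values, was 16.4 to 23.0 M read pairs (median 19.2). Only 14.7% to 18.6% of low values lay on a step (tolerance 0.02), so no reads were recovered and no count test or counting interval is given. Of summed FPKM, 51.1% to 57.4% came from mitochondrial genes.

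Genes that reached 1 FPKM in 4 or more samples were fitted together with limma 3.58.1 (R 4.3.3; trend and robust options) on log2(FPKM + 1), each group having its own mean, and p-values were adjusted over all 10866 (Benjamini-Hochberg). The pseudocount of 1 makes the fitted change of low genes smaller. Exact permutation tests used each of the 4 genes alone. The code was tested on simulated data. Mice may share a cage or litter, which the labels do not give, so p-values measure the spread between these samples. The 4 genes, the lists and the tests were chosen with earlier results of these data known. The text names the 4 genes, the 3 nearest to each in deviations from group means, the listed genes that passed in a microbiome comparison (up to 4 a list) and relatives of the 4; other names, those of the sex comparison among them, were chosen after their values were seen. Promoter windows are RefSeq's (GRCm38.p6), and Acat1 was not among those matched. The plots came from matplotlib 3.10.9 and pandas 2.3.3 under Python 3.11.15. Some listed genes are not reported here by name.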

Additional observations from a re-analysis of the deposited data

Results flagged for a closer look

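Of 16 groups of 4 or 5 hearts tested (4 genes in 4 groups), 2 had a heart whose gap to the nearest other was large for the range of its group by Dixon's criterion, which chance meets in about 1 in 20 groups. Bdh1 was 32.1 FPKM in normal male 2, against 26.5 to 27.1 FPKM in the other normal males. Without that heart, the log2 difference of Bdh1 in males was -0.054 (adjusted p = 0.922) and that between the sexes 0.26 (adjusted p = 0.00697, limma), both on the same side of the threshold. Acat1 was 112.7 FPKM in normal female 2, against 109.2 to 109.9 FPKM in the other normal females, a gap of few FPKM in a group that varied little.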

How the results depend on the processing

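With 4 or 5 hearts a group, FPKM without counts and differences of about 0.1 log2, calls near the threshold moved with the setting. The number of the 4 genes called between microbiomes over both sexes was 0 as reported and 1 (Slc16a1) after median-ratio scaling, upper-quartile scaling, a filter of 1 FPKM in 10 samples, additive terms for sex and microbiome, array weights and GC correction (adjusted p 0.0237 to 0.050). It was 0 to 1 with each library left out. Between the sexes 3 genes passed under upper-quartile as under median-ratio scaling, and 1 as reported. Over all genes, calls in males went from 207 to 97 with no filter, 69 with only males in the fit and 60 to 258 with libraries left out (60 without normal male 2, and 81, 128, 105 and 134 without normal males 3 and 4 and dysbiotic males 2 and 3). Calls in females went from 309 to 585 with array weights and to 167 to 357 with libraries left out (167, 201 and 172 without normal females 1, 3 and 4). Calls on the difference between the sexes in the response went from 43 to 22 with no filter, 85 with array weights and 24 to 102 with libraries left out (102 without dysbiotic male 5, 24 without normal male 2, and 25 to 28 without 9 others). Co-variation fell from 5 pairs to 0 after median-ratio scaling, where Bdh1 and Acat1 gave -0.18.

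Directions of some small, uncalled differences turned: Bdh1 in females to -0.0046 and Oxct1 between the sexes to -0.026 (both under median-ratio scaling), Oxct1 between the sexes to -0.025 under the upper-quartile method, and, with array weights, Acat1 in females to 0.0081 and the Slc16a1 response between the sexes to 0.049. With libraries left out, Oxct1 over both sexes ranged from -0.020 to 0.0098, Bdh1 in females from -0.019 to 0.074, Acat1 in females from -0.0092 to 0.017 and the Slc16a1 response between the sexes from -0.088 to 0.0038. The cause of these changes was not tested. Replicate numbers did not pair the samples (same-numbered deviations correlated from -0.49 to 0.53, median -0.032). With the replicate number as a block, Slc16a1 over both sexes was 0.17 (adjusted p = 0.0881) and calls in males were 106. Splits of all calls in females were 202 higher and 107 lower as reported, and 215 and 177 after median-ratio scaling.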
